A study of Homo sapiens with 18 samples.

Results

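A pair of stably transfected pools of HepG2, a cell line established from a human liver cancer, was compared while both were exposed to T3 (triiodothyronine, the active thyroid hormone). One carried an expression plasmid for the thyroid hormone receptor TRβ1 and the other a plasmid for TRα1. The comparison set the 3 TRβ1 arrays with hormone against the 3 TRα1 arrays with hormone, taken as pairs by the replicate number in their titles. These are 6 of the 18 arrays of the series. Standard errors and p-values used a residual spread estimated over all 18. Every difference below is TRβ1 minus TRα1 in log2 units unless another pair is named, so a value of 1 means a ratio of 2. All groups were HepG2 clones picked under G418 co-selection and combined into a single pool for each plasmid, with 12 clones for TRβ1, 6 for TRα1 and 11 for the empty plasmid. The serum in the medium (10%) had been stripped of hormones, T3 was given at 100 nM, the other arrays had the ethanol vehicle, and exposure lasted 6 h. Each group comprised 3 biological repeats. Because each construct was represented by 1 pool, the receptor isoform, the clones that made up the pool and the amount of receptor cannot be told apart, and p-values measure only the spread between repeats of those pools. The labels describe no removal of the receptors that HepG2 itself expresses.

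Thyroid hormone receptors are nuclear receptors that sit on DNA, often together with a retinoid X receptor, and bind repeats of a short hexamer. Without hormone they recruit corepressors, and hormone exchanges these for coactivators, so that many target genes are transcribed more when T3 is present. THRA and THRB encode the receptor isoforms; in liver THRB is known as the main one, and the hormone acts there on lipid, glucose and bile acid metabolism.

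Of 20546 array features with a gene symbol, 124 (0.604%) differed between the pools on T3 at an adjusted p under 0.05 in limma, with Benjamini-Hochberg adjustment over all features tested and the replicate number as a block. They comprised 46 features higher in the TRβ1 pool (0.224%) and 78 lower (0.38%), with sizes from 0.32 to 1.53, and 14 of them exceeded 1 unit. The tight-junction gene CLDN6, the glucose transporter gene SLC2A2, the tyrosine kinase gene FYN and THRA itself were lower in the TRβ1 pool. The cartilage matrix gene MATN3, the flippase gene ATP10A, the kinase gene SGK1 and TTR, which encodes the plasma carrier transthyretin, were higher in the TRβ1 pool. All 124 had the same sign in the 3 pairs, as had 29.5% of all features, and in 95 the 3 values of one pool lay beyond the 3 of the other, against 5.85% of all features. The number called depended on the arrays and the model. The 124 calls rest on a residual spread taken from all 18 arrays, and a fit of the T3 arrays only called 26. Without the replicate block 9 features (0.0438%) passed, 8 of them lower and 1 higher in the TRβ1 pool, namely CDCA7L, FYN, CHN1, ENPP2, CYBRD1, THRA, CLMN, a feature shared by MSANTD3-TMEFF1 and TMEFF1, and ATP10A. Leaving out a single array gave 68 calls without TRα1 replicate 1, 45 without TRα1 replicate 2, 40 without TRα1 replicate 3, 36 without TRβ1 replicate 1, 39 without TRβ1 replicate 2 and 41 without TRβ1 replicate 3. CDCA7L, ENPP2, FYN, PAQR9 and SGK1 were called in all 9 fits that left out 1 of these 6 arrays or a replicate number. At the threshold, CES1 lay just inside with an adjusted p of 0.0497 and SNORD116-24 just outside with 0.0511.

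**Figure D1:**
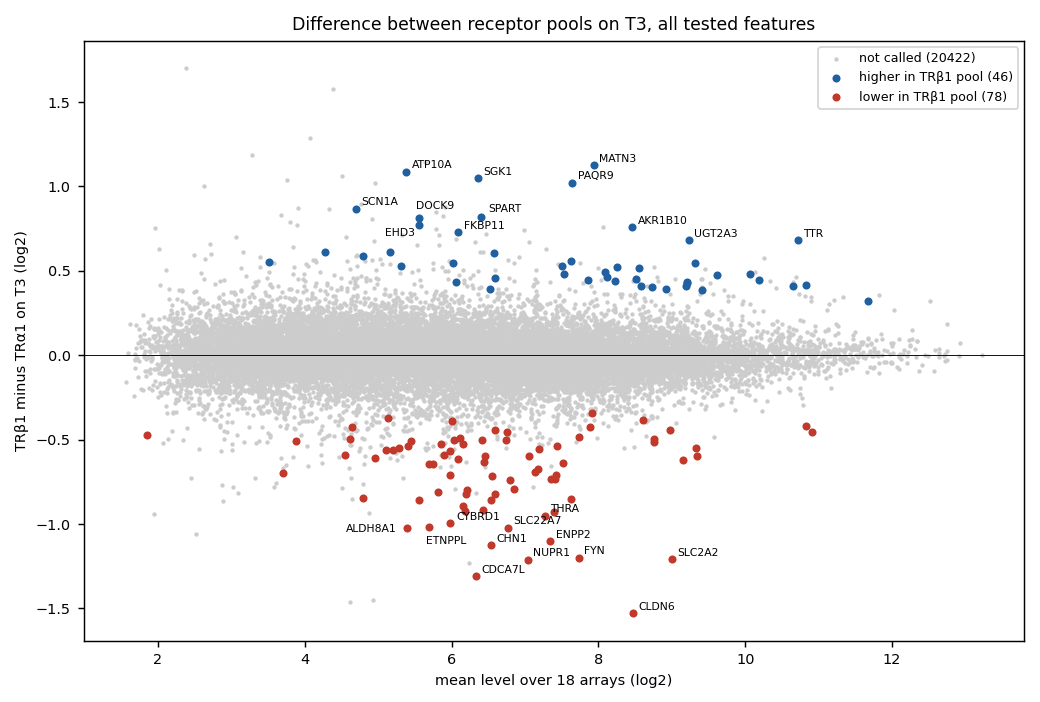
Difference between the TRβ1 and TRα1 pools on T3 (log2) against the mean level over all 18 arrays (log2) for 20546 features. Blue points mark 46 features called as higher with TRβ1, red points 78 called as lower, and grey points were not called; the named genes are labelled.

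THRA, the gene of the receptor that the TRα1 plasmid encodes, stood higher in that pool. Its feature read 7.96, 8.22 and 7.71 on the TRα1 arrays with T3, 7.01, 6.85 and 7.17 on the TRβ1 arrays, and 7.08, 6.77 and 7.18 with the empty plasmid. All 3 TRα1 values lay above all other values, and the TRβ1 and empty-plasmid values overlapped. The difference between receptor pools was -0.95 ± 0.13 (SE, n = 3 arrays per pool; limma adjusted p = 0.0038), a 1.93-fold lower level in the TRβ1 pool. THRB read 7.39, 7.48 and 7.40 in the TRβ1 pool and 6.93, 7.13 and 7.50 in the TRα1 pool. These values overlapped, and the difference of 0.23 ± 0.11 did not pass (limma adjusted p = 0.635). It ranged from 0.12 without replicate number 1 to 0.40 without replicate number 3, was 0.37 without TRα1 replicate 3 alone, and was 0.08 with array weights. Which parts of the transcripts these features cover, and whether they include the introduced coding sequences, was not given in the sources used here, so neither level measures the amount of introduced receptor. The other 10 measured members of the list of receptors and partners, among them RXRA at -0.01 ± 0.08, were not called.

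Of the 124 features called, 14 had also responded to T3 in at least 1 receptor pool. In the TRα1 pool 14 had responded, beside 0.667% of all features, and in the TRβ1 pool 7, beside 0.477%. T3 raised 127 features in at least 1 receptor pool. At the end of the 6 h 12 of these were lower in the TRβ1 pool, 1 was higher and 114 were not called. Of all features, 0.38% were called lower and 0.224% higher. In the TRβ1 pool T3 changed 98 features (0.477%), raising 83 (0.404%) and lowering 15 (0.073%), and in the TRα1 pool 137 (0.667%), raising 120 (0.584%) and lowering 17 (0.0827%). The 127 had a median end difference of -0.14 with 107 below 0, against a median of -0.002 over all features. These responses were computed from the same T3 arrays as the end levels, so the values stand side by side and are not independent of each other. Of the 76 features raised in both pools, FYN, ENG, PTAFR, KCNJ10 and SSC4D ended lower in the TRβ1 pool and SGK1 ended higher. Of 23 features that T3 lowered in at least 1 pool, TGFBR3, which encodes a co-receptor for TGF-beta, ended higher in the TRβ1 pool and 22 were not called.

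FYN, a Src-family tyrosine kinase gene, had the largest end-level difference among the genes raised in both pools. It read 9.45, 9.61 and 9.26 on the TRα1 arrays with T3, 8.32, 8.44 and 7.95 on the TRβ1 arrays and 7.45, 7.40 and 7.44 with the empty plasmid. The 3 groups did not overlap and the TRβ1 pool lay between the others, 2.30-fold below the TRα1 pool (-1.20 ± 0.10, limma adjusted p = 9.13e-05). T3 raised it by 1.79 ± 0.10 with TRα1 and by 1.40 ± 0.10 with TRβ1, and the pools already differed on vehicle by -0.82 ± 0.10. ENG, which encodes the TGF-beta co-receptor endoglin, read 8.01, 7.998 and 7.37 with TRα1 and 6.84, 7.12 and 6.94 with TRβ1 on T3. These values did not overlap (-0.82 ± 0.13, limma adjusted p = 0.0101), whereas the difference on vehicle was -0.27 ± 0.13 and did not pass. PTAFR, the receptor gene for platelet-activating factor, stood at -0.59 ± 0.11 on T3 and -0.23 ± 0.11 on vehicle, with the second not passing. In the 9 fits that left out an array of these pools on T3 or a replicate number, ENG was called in 4 and PTAFR in 1. For neither gene was the difference between the T3 responses of the pools called. Both genes stood above the empty plasmid in both receptor pools on T3.

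SGK1, a serum- and glucocorticoid-induced kinase gene that acts on ion transport, was the gene raised in both pools that ended higher with TRβ1. Its levels on T3 were 7.65, 7.32 and 7.41 in the TRβ1 pool, 6.66, 6.39 and 6.19 in the TRα1 pool and 6.53, 6.28 and 6.47 with the empty plasmid. The TRβ1 values stood above all others, and those of the TRα1 pool overlapped the empty plasmid. The difference was 1.05 ± 0.11 on T3 (limma adjusted p = 3.00e-04) and 0.88 ± 0.11 on vehicle, and the gene rose with T3 by 1.01 ± 0.11 (TRβ1) and 0.85 ± 0.11 (TRα1).

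Several known T3-responsive genes ended at levels that did not pass the test. CYP24A1, the vitamin D hydroxylase gene, stood at -0.66 ± 0.15 (limma adjusted p = 0.0626) and PCK1, which encodes a gluconeogenic enzyme, at 0.66 ± 0.19 (limma adjusted p = 0.187). SCNN1A, a gene of the amiloride-sensitive sodium channel, stood at -0.44 ± 0.13 and the glucose transporter gene SLC2A1 at 0.35 ± 0.08, and neither passed. HEG1 stood at 0.005 ± 0.12, and its sign turned when TRα1 replicate 1, TRβ1 replicate 3 or replicate number 3 was left out. Of 27 measured genes on the list of textbook thyroid hormone responsive genes, TTR passed, higher in the TRβ1 pool, and 26 did not. Of all features, 0.604% passed. TTR itself was not called as responding to T3 in either receptor pool. On vehicle 2 genes of the list were called, both higher in the TRβ1 pool. The median of that list was -0.02.

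**Figure D2:**
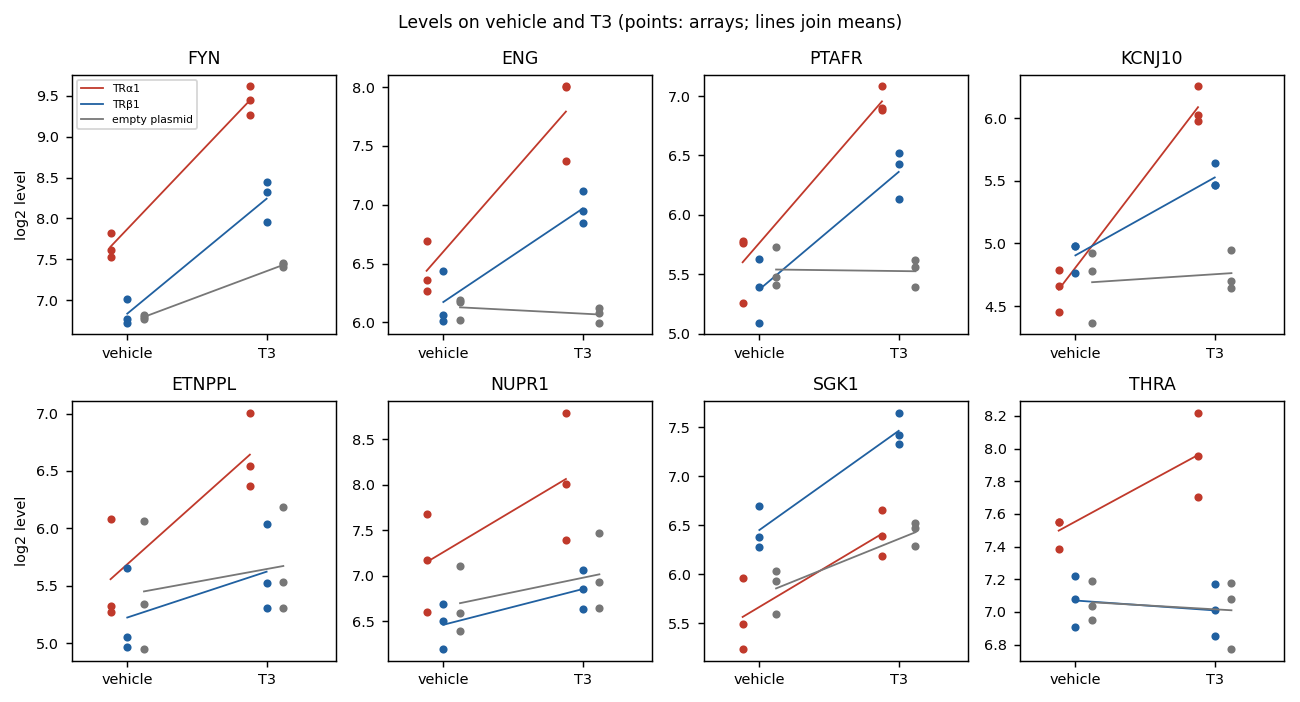
Levels (log2) of 8 genes without and with T3; red is the TRα1 pool, blue TRβ1 and grey the empty plasmid; each point is an array and lines join group means. FYN and SGK1 already stood apart between the receptor pools on vehicle, while KCNJ10 was lower in the TRα1 pool in each vehicle pair and higher there on T3.

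Promoter sequences were examined because members of the receptor family bind the hexamer AGGTCA. RefSeq promoters (GRCh38.p14) were matched by symbol for 93 called genes and searched, over the 250 bases before the start, for AGGTCA or TGACCT, which is the same hexamer on the other strand and, on both strands, for the direct repeat that has AGGTCA, any 4 bases and AGGTCA again, which contains the hexamer. The hexamer was present in 6 of the 93 called genes (6.452%), in 9.691% of 14230 tested genes and in 12.144% of all 27305 promoters. The direct repeat was in 0 of the called genes and 0.015% of all promoters. The 6 were CDCA7L, SLC22A7, PTAFR and SULT1C2, called lower in the TRβ1 pool, and SNX6 and BBS5, called higher. CDCA7L and SLC22A7 are among the 12 genes with the largest difference in their direction, and they are shown with FYN and SGK1, the genes raised by T3 in both pools that ended most apart in each direction. The stretches are chr7:21945987-21946106 on the minus strand, chr6:43298059-43298178 on the plus strand, and the 120 bases next to the start of FYN (chr6:111873453-111873572, minus strand) and SGK1 (chr6:134318113-134318232, minus strand). Capitals mark the hexamer.
CDCA7L: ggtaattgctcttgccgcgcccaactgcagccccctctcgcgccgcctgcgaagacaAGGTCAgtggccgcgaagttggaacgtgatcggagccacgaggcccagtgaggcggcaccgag
SLC22A7: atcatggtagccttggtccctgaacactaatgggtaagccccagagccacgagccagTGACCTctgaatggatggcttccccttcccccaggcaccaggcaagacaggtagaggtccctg
FYN: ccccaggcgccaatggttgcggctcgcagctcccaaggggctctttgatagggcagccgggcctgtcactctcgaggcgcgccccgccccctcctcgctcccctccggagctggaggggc
SGK1: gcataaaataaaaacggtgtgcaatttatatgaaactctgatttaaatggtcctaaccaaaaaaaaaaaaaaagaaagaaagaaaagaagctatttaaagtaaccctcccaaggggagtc
The hexamer began 150 bases before the CDCA7L start and 144 bases before the SLC22A7 start, while these windows of FYN and SGK1 held none. Each gene was represented by a single start, so other starts of the same gene were not searched. A match in these letters describes the sequence and does not show a bound site.

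Genes of hepatocyte function were called in both directions. SLC2A2, the liver glucose transporter GLUT2, read 9.16, 9.46 and 9.70 with TRα1, 7.98, 8.26 and 8.46 with TRβ1 and 8.35, 9.04 and 9.08 with the empty plasmid. The TRα1 values lay above and the TRβ1 values mostly below the empty plasmid, and the receptor pools differed by -1.21 ± 0.13 (limma adjusted p = 3.00e-04). On vehicle the difference was -1.20 ± 0.13. TTR, which encodes a carrier of thyroid hormone and retinol-binding protein, read 11.02, 10.91 and 10.69 in the TRβ1 pool, 10.38, 10.18 and 10.01 in the TRα1 pool and 11.07, 11.10 and 10.84 with the empty plasmid. Its TRα1 values stood below all others, 1.60-fold below the TRβ1 pool (0.68 ± 0.08, limma adjusted p = 3.57e-04). SLC22A7, an organic anion transporter gene, was lower by 2.03-fold with TRβ1, at 6.40, 6.28 and 6.29 against 7.40, 7.05 and 7.60 with TRα1.

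Other metabolic genes lower in the TRβ1 pool were ALDH8A1, an aldehyde dehydrogenase gene (-1.02 ± 0.17), ETNPPL, whose product breaks down phosphoethanolamine (-1.02 ± 0.11), BHMT, which remethylates homocysteine (-0.71 ± 0.14), and ACSL1, which activates long-chain fatty acids (-0.60 ± 0.09). CYBRD1, a ferric reductase gene, read 6.17, 5.63 and 5.76 with TRβ1 and 6.76, 6.82 and 6.97 with TRα1, a difference of -0.996 ± 0.14. HMOX1, which degrades heme, differed by -0.43 ± 0.08. The genes called higher with TRβ1 included UGT2A3, a glucuronosyltransferase gene (0.68 ± 0.11), AKR1B10 and AKR1C3, aldo-keto reductase genes (0.76 ± 0.15 and 0.42 ± 0.08), BAAT, which conjugates bile acids to amino acids (0.55 ± 0.11), APOM, an apolipoprotein gene (0.54 ± 0.09), and SLC7A11, the cystine transporter gene (0.47 ± 0.09). AKR1B10 varied more between replicate numbers than between pools, at 10.07, 8.27 and 8.03 with TRβ1 and 9.19, 7.72 and 7.19 with TRα1. Its values overlapped between pools although each pair had the same sign, and without the block its adjusted p was 1.0. Other calls named here also depended on single arrays. In the 9 fits that left out an array of these pools on T3 or a replicate number, ETNPPL was called in 8. CYBRD1 was called in 7, ACSL1 in 6, ALDH8A1, UGT2A3 and APOM in 2, and BHMT and BAAT in 1. AKR1B10, AKR1C3, SLC7A11 and HMOX1 were called in 0.

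Several genes of signalling, matrix and adhesion were lower in the TRβ1 pool. CLDN6, a tight-junction gene known from fetal tissue and tumours, read 7.81, 8.73 and 7.60 with TRβ1, 9.43, 9.87 and 9.42 with TRα1 and 8.16, 7.93 and 7.53 with the empty plasmid. The TRα1 values stood 2.89-fold above the TRβ1 pool (-1.53 ± 0.20, limma adjusted p = 0.0019), and the TRβ1 values overlapped the empty plasmid. CDCA7L, which encodes a MYC-interacting nuclear protein, ran the other way against the empty plasmid. It read 5.87, 5.57 and 5.57 with TRβ1, 6.98, 6.91 and 7.05 with TRα1 and 6.58, 6.54 and 6.99 with the empty plasmid, so the TRβ1 pool alone stood apart (-1.31 ± 0.12 between receptor pools, limma adjusted p = 1.39e-04). CHN1, a regulator of the small GTPase Rac, and ENPP2, the gene of the lysophospholipase autotaxin, stood above the empty plasmid in both receptor pools and more so with TRα1. CHN1 differed by -1.13 ± 0.15 and ENPP2 by -1.10 ± 0.10. NUPR1, a stress-induced nuclear protein gene, read 6.85, 7.06 and 6.63 with TRβ1 and 8.79, 8.003 and 7.39 with TRα1, and the difference of -1.21 ± 0.18 ranged from -1.94 to -0.76 over the 3 pairs.

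Further members of the lists that were lower in the TRβ1 pool were the complement protease gene C1S (-0.92 ± 0.09), the proteoglycan gene VCAN (-0.86 ± 0.16), the metalloproteinase inhibitor gene TIMP3 (-0.55 ± 0.09), the annexin gene ANXA3 (-0.92), the imprinted transcription factor gene PLAGL1 (-0.86 ± 0.13), the Wnt inhibitor gene APCDD1 (-0.50 ± 0.10) and the receptor kinase genes FGFR2 (-0.43) and AXL (-0.39). SERPING1, which encodes the inhibitor of C1 proteases, was lower by 0.89 ± 0.12. The following secreted or membrane factors outside the lists were picked after their values were seen, all called lower: the growth factor genes FGF2 (-0.55 ± 0.08) and PDGFC (-0.46 ± 0.09) and the Wnt pathway genes WNT11 (-0.49 ± 0.10) and KREMEN1 (-0.64 ± 0.11). Higher in the TRβ1 pool were DLK1, a Notch-family ligand gene (0.44 ± 0.08), the hypoxia-induced prolyl hydroxylase gene EGLN3 (0.53) and TGFBR3 (0.47 ± 0.10). Many of these calls were lost in the 9 fits that left out an array of these pools on T3 or a replicate number. C1S was called in 8, SERPING1 in 7, PLAGL1 in 5, FGF2 in 4 and KREMEN1 in 3. VCAN and TIMP3 were called in 2, and ANXA3, DLK1 and TGFBR3 in 1. APCDD1, FGFR2, AXL, PDGFC, WNT11 and EGLN3 were called in 0.

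The remaining genes with the largest positive differences were not on the lists. MATN3 read 9.21, 8.47 and 8.01 with TRβ1, 7.91, 7.72 and 6.69 with TRα1 and 8.09, 7.64 and 7.49 with the empty plasmid. The receptor pools did not overlap (1.13 ± 0.15, limma adjusted p = 0.0032), but without the block the adjusted p was 1.0. ATP10A, a phospholipid flippase gene, read 5.76, 5.78 and 5.78 with TRβ1, 4.78, 4.61 and 4.67 with TRα1 and 5.47, 5.38 and 5.53 with the empty plasmid, so the TRα1 pool was low (1.09 ± 0.11, limma adjusted p = 2.94e-04). PAQR9, a membrane receptor family gene, was at 8.10, 8.30 and 7.47 with TRβ1, 7.04, 7.28 and 6.48 with TRα1 and 8.06, 8.16 and 7.91 with the empty plasmid. The low pool was again TRα1 (1.02 ± 0.10, limma adjusted p = 2.63e-04). SCN1A, a sodium channel gene (0.87 ± 0.13), SPART, the spartin gene (0.82 ± 0.13), DOCK9, an activator of the GTPase Cdc42 (0.81 ± 0.17), EHD3, an endocytic recycling gene (0.77 ± 0.12), and FKBP11, a prolyl isomerase gene of the secretory pathway (0.73 ± 0.12), completed the 12 largest. In the 9 leave-out fits, SCN1A and EHD3 were called in 4, FKBP11 in 3, SPART in 2 and DOCK9 in 1.

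**Figure D3:**
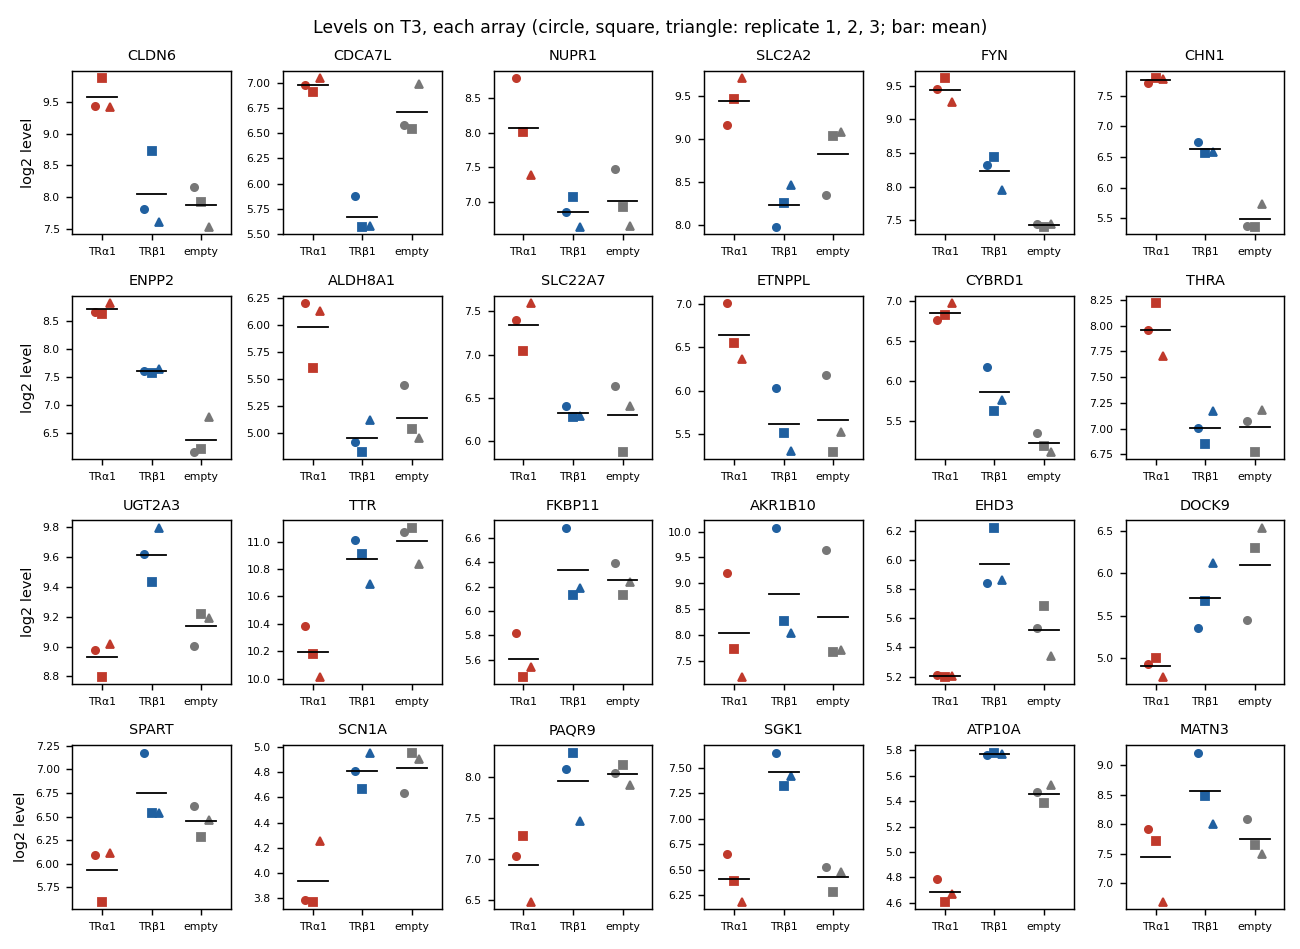
Level on T3 (log2) on each array for the 12 genes with the largest difference in each direction, with the empty-plasmid pool beside the receptor pools. Circles, squares and triangles are replicates 1, 2 and 3 and bars are means; in 23 of the 24 genes the 3 TRβ1 values lay beyond the 3 TRα1 values, with AKR1B10 the exception.

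No gene list held more than 3 calls. The 38 lists covered 742 measured genes, of which 11 were called higher and 17 lower (3.774%, against 0.604% of all features). The lists were drawn up with earlier results of these data known and favour genes expressed in liver, so nothing is read from that excess. None of the members was called in 16 lists, 1 or 2 were called in 21, and 3 were called in 1, the oxidative stress and NRF2 targets, where SLC7A11 and AKR1B10 were higher and HMOX1 lower. List medians ran from -0.12 to 0.07. Lists with no member called included 37 cell cycle genes, 14 genes of cholesterol synthesis and uptake, 18 of fatty acid synthesis, 14 of gluconeogenesis and glycogen, 25 of coagulation, 31 interferon-response genes and 36 respiratory chain subunits. All 8 hepatocyte markers measured were abundant, with mean levels from 10.5 to 12.7, and TTR alone was called. Markers of other cell types gave 0 calls among 10 fibroblast, 9 endothelial, 10 leukocyte and 6 biliary genes. With 0.604% of all features called, nothing is read from 0 calls among so few genes. On T3, 2 of the fibroblast, 0 of the endothelial, 3 of the leukocyte and 4 of the biliary markers stood above the median level of the features tested.

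Most of the difference on T3 was also there without hormone. The vehicle comparison used other arrays of the same pools and called 111 features (0.54%), 60 higher (0.292%) and 51 lower (0.248%) with TRβ1. Both comparisons came from the same fit and share the residual spread of each feature, so their calls are not independent of each other. Of these, 71 were called on T3 too, which is 57.258% of the T3 calls and 63.964% of the vehicle calls, and 0 were called in the opposite direction. Of the 124 features called on T3, 121 had the same sign on vehicle, 119 kept that sign in all 3 vehicle pairs (30.4% of all features had 1 sign in those pairs), and 117 had an unadjusted p under 0.05 there in the same direction, whereas 7.71% of all features had such a p in either direction. The 46 features called higher had medians of 0.52 on T3 and 0.53 on vehicle. The 78 called lower had medians of -0.62 and -0.50, and 61 of them were farther from 0 on T3 than on vehicle. Since the features were selected for their T3 value, the larger T3 values are a description.

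**Figure D4:**
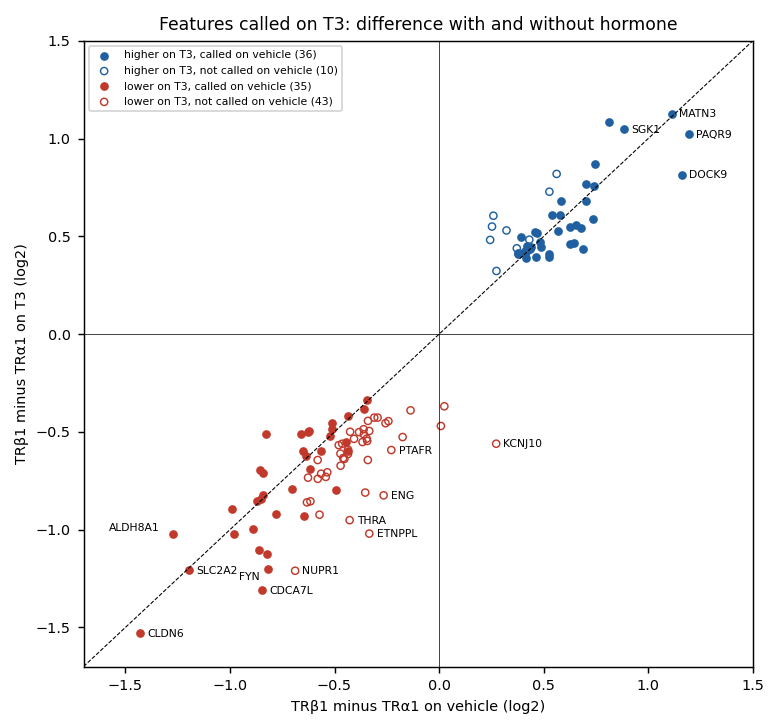
For the 124 features called on T3, the difference TRβ1 minus TRα1 on T3 (log2, vertical) against the same difference on vehicle (log2, horizontal); filled points were also called on vehicle and the dashed line marks equality. In 121 features both differences have the same sign, and KCNJ10, ETNPPL, ENG and THRA lie well below the line.

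The difference of the T3 responses, which asks whether the gap between pools changed with hormone, was called for 0 features in limma, with 619 (3.01%) at an unadjusted p under 0.05. The smallest adjusted p was 0.9998. Without the replicate block the count was also 0, with 223 at an unadjusted p under 0.05, and leaving out TRα1 vehicle replicate 1 gave 1 call, at a dim feature that is 1 of 3 for EXOC5 (-0.84 ± 0.10, mean level 2.66). The most extreme values among the T3 calls were -0.83 ± 0.17 for KCNJ10, an inward rectifier potassium channel gene, and -0.69 ± 0.16 for ETNPPL. THRA stood at -0.52 ± 0.19, so its gap between pools on T3 was -0.95 against -0.43 ± 0.13 on vehicle.

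Beside the empty plasmid on T3, the TRα1 pool lay farther away than the TRβ1 pool for 98 of the 124 features. The matching share over all features is not given here, so nothing is read from that count about the 124. These comparisons share the empty-plasmid arrays with each other and the receptor arrays with the T3 comparison, so they are given side by side. Over all features, 582 (2.83%) were called between TRα1 and the empty plasmid and 179 (0.871%) between TRβ1 and the empty plasmid. Of the 78 features lower in the TRβ1 pool, 62 were called higher in the TRα1 pool than with the empty plasmid (1.82% of all features were), with a median of 0.76. In the TRβ1 pool 15 were called higher (0.526% of all features) and 6 lower (0.346%) than with the empty plasmid, with a median of 0.07. CDCA7L and SLC2A2 were among the 6, at -1.04 and -0.59 against the empty plasmid. Of the 46 features higher in the TRβ1 pool, 25 were called lower in the TRα1 pool than with the empty plasmid (1.02% of all features were), with a median of -0.38. In the TRβ1 pool 7 were called higher than with the empty plasmid (0.526% of all features were), with a median of 0.13. Among the 7 were SGK1 at 1.03, BAAT at 0.998 and MATN3 at 0.82.

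The genes called higher were unevenly placed in the genome. Of the 45 that carried a single gene symbol, 17 lay on chromosome 14, which holds 587 of the genes tested, and no other chromosome held more than 4. The order of genes in RefSeq was used here without coordinates, since no genome build came with the array. Within chromosome 14, a stretch from SUPT16H to FANCM, bounded after the values were seen and so given without a test, held 73 genes expressed at or above the median level. Their median difference was 0.32 on T3, with 66 above 0. The 7 below 0 were SALL2, JPH4 and the genes from DORIP1 to FANCM at the end of the stretch. In the stretch 15 genes were called higher, beside 0.224% of all features. None of these 15 was called without the replicate block, and of the 9 fits that left out an array or a replicate number, DTD2 was called in 4, 7 of the genes in 1 and the other 7 in none. The 3 pairs gave medians of 0.300, 0.315 and 0.358, and the vehicle arrays gave a median of 0.33. The other 235 such genes of chromosome 14 had a median of -0.10 on T3, and the 9013 on other chromosomes had -0.016. Against the empty plasmid on T3 the stretch had a median of -0.29 in the TRα1 pool. There 22 genes were called lower and 1 higher, beside 1.02% and 1.82% of all features. In the TRβ1 pool the median was 0.01, with 1 gene called higher and 0 lower, beside 0.526% and 0.346% of all features.

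The 15 genes called in that stretch include PRMT5, an arginine methyltransferase gene, AJUBA, a LIM-domain gene of the Hippo pathway, RNF31, a subunit of the linear ubiquitin ligase, the nuclear import gene IPO4, the sorting nexin gene SNX6, and DHRS1 and DHRS2 of the short-chain dehydrogenase family. Their differences ran from 0.32 for DHRS2 to 0.53 for EAPP. In consecutive windows of 25 genes over the genome, the windows SDR39U1 to SEC23A (median 0.36, 25 of 25 above 0) and HAUS4 to KHNYN (median 0.34) of this stretch had the largest medians, and the next was a window on chromosome 5 from CCDC127 to CMBL at 0.16.

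**Figure D5:**
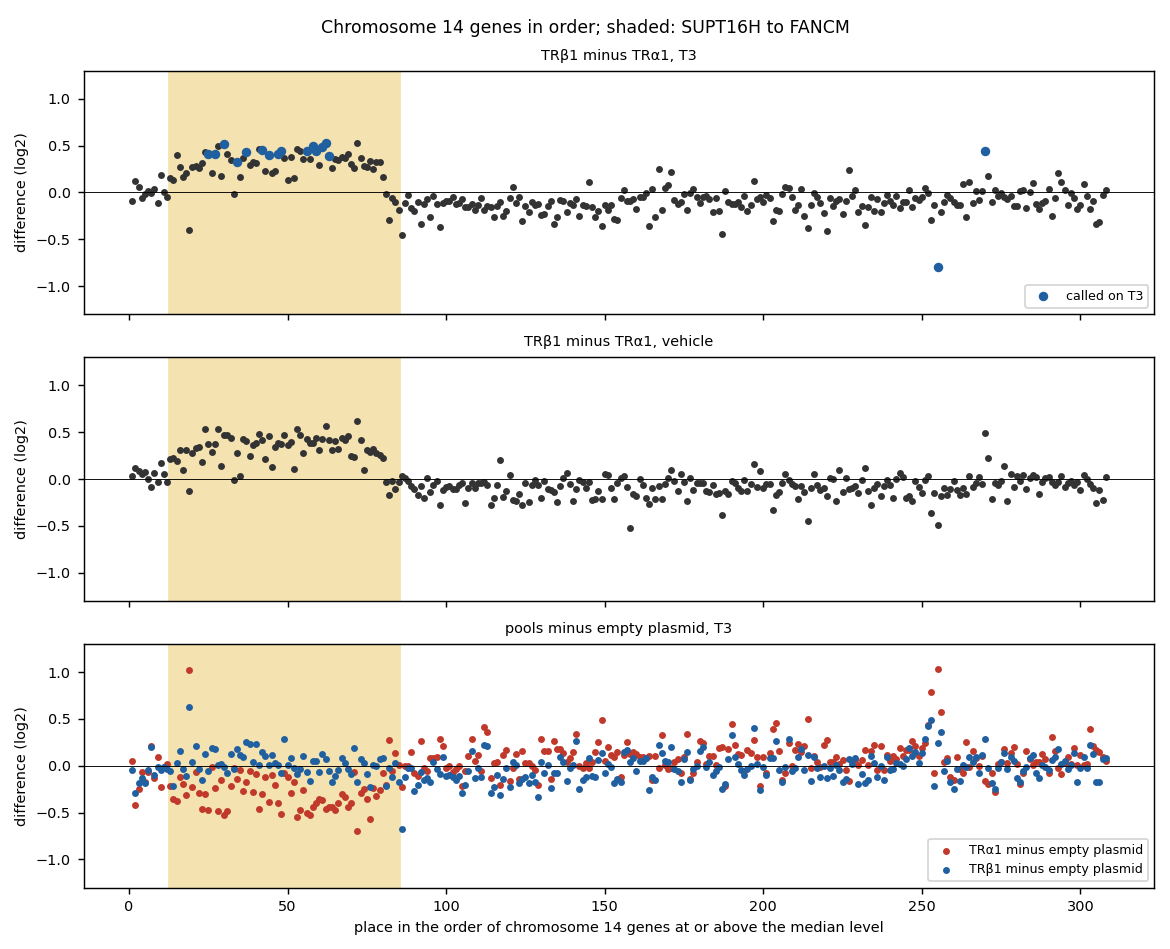
Chromosome 14 genes at or above the median level in their order along the chromosome, with the difference TRβ1 minus TRα1 (log2) on T3 and on vehicle and each receptor pool minus the empty plasmid on T3; the stretch from SUPT16H to FANCM is shaded and blue points in the top panel were called on T3. Most values in the stretch sit near 0.3 in both receptor comparisons, but those from DORIP1 to FANCM at its end lie below 0 in both. Against the empty plasmid 69 of the 73 TRα1 points lie below 0, while the TRβ1 points lie around it.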

How the data were processed

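The deposited table holds log2 expression per transcript cluster for 18 single-colour Affymetrix arrays, which the authors summarised by RMA (the submitters' processing notes name R 2.7.1) from 200 ng of total RNA per array, per the labels' protocols. RMA sets all arrays to a common distribution, so a shift of most genes in one direction would not be seen. No aligner or genome build was given in the sources used here. Of 32321 features, 20546 had a gene symbol (1388 with several) and were tested, and values ran from 0.894 to 13.7. The arrays carry no read depth, and precision depends on their number and on the model. The standard error of a difference had a median of 0.107 with the replicate block and 0.157 without it.

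Differences were fitted with limma 3.58.1 (R 4.3.3) over all 18 arrays with group and replicate number as terms, two-sided, with Benjamini-Hochberg adjustment over the 20546 features and a threshold of 0.05. The replicate numbers pair the arrays: deviations from the group means correlated positively in all 45 same-numbered pairs (lowest r = 0.259), and each of the 18 arrays matched its own number best. The scripts were tested on simulated data. The comparison and the 38 gene lists (892 entries, 798 matched) were chosen with earlier results of these data known. Named were the 12 genes with the largest called difference in each direction with 1 symbol and the same sign in all pairs, up to 6 in each direction from the vehicle comparison and the difference of responses, up to 4 called members of each list, and THRA and THRB. Fits without the block, with it as random, on fewer arrays, with other filters, weights, priors or centring were run as alternatives.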

Additional observations from a re-analysis of the deposited data

Results flagged for a closer look

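KCNJ10, a potassium channel gene of the inward rectifier family, had differences of opposite sign between the pools with and without hormone, of which the one on T3 passed the test and the one on vehicle did not. On vehicle it read 4.45, 4.66 and 4.79 in the TRα1 pool and 4.76, 4.98 and 4.98 in the TRβ1 pool, higher with TRβ1 in each of the 3 pairs (0.27 ± 0.12, limma adjusted p = 0.582). The values overlapped, and 30.4% of all features had 1 sign in those pairs. On T3 it read 6.03, 6.25 and 5.98 in the TRα1 pool and 5.65, 5.47 and 5.47 in the TRβ1 pool, lower with TRβ1 in each pair (-0.56 ± 0.12, limma adjusted p = 0.0495). That call held in 1 of the 9 fits that left out an array of these pools on T3 or a replicate number. T3 raised it by 1.45 ± 0.12 in the TRα1 pool and by 0.62 ± 0.12 in the TRβ1 pool. The difference of the responses was -0.83 ± 0.17, with an unadjusted p of 1.86e-04 in limma that did not pass the adjustment over all features (adjusted p = 0.9998).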

How the results depend on the processing

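The count of features called on T3 (124) was 9 without the replicate block, 82 with it as a random effect, 26 on the T3 arrays only, 63 over all features, 521 with array weights and 10 on the 6 arrays compared (chosen after seeing the data). It ranged from 10 to 68 when an array of the groups compared or a replicate number was left out, which is what leaving out a replicate means below. Leaving out an array of another group gave 92 to 124, and the other settings gave 120 to 185. The vehicle count (111) was 0 without the block, 60 over all features, 221 with array weights, 172 with a trended robust prior and 1 to 86 with a replicate left out (92 to 112 for arrays of other groups). For TRβ1 against the empty plasmid (179) the count was 32 without the block, 114 with a random block, 56 on the T3 arrays, 299 with the filter on low values, 109 over all features, 295 with the trended prior and 25 to 203 with a replicate left out (131 to 183 for other groups). For TRα1 against the empty plasmid (582) it was 89 without the block, 288 on the T3 arrays and 93 to 580 with a replicate left out (501 to 615 for other groups). The difference of responses gave 0 to 1 calls with a replicate left out. HEG1 (0.005) ranged from -0.04 to 0.0443 with a replicate left out and reversed, to -0.0205 without replicate 3, -0.04 without TRα1 replicate 1 and -0.0325 without TRβ1 replicate 3. RXRA (-0.01) ranged from -0.0743 to 0.0342 and the brightest EXOC5 feature (-0.05), which is not the one called for the difference of responses, from -0.1037 to 0.019 with a replicate left out, and RXRA was at 0.0082 with array weights. Among the genes refitted under these settings, no other changed sign, and the cause of these shifts was not tested. The table holds no detection calls, so low values could not be set against background.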

Other observations

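The small nucleolar RNA genes SNORD116, an imprinted cluster on chromosome 15, had 20 measured members, of which 2 were called higher in the TRβ1 pool on T3, beside 0.224% of all features. These were SNORD116-13 and SNORD116-14, and each was called in 1 of the 9 fits that left out an array of the pools compared or a replicate number. The differences of the 20 ran from -0.003 to 0.85 with a median of 0.46, and 19 were above 0. SNORD116-16 and SNORD116-12 were near 0, and their mean levels of 2.20 and 2.62 were low on these arrays. Mean levels of the 20 ran from 2.20 to 10.8. The median difference was 0.39 on vehicle, and against the empty plasmid on T3 it was -0.42 with TRα1 and 0.03 with TRβ1. The 20 members of the neighbouring SNORD115 family had a median of 0.02 and 0 were called in limma. Their levels, between 1.59 and 3.80, were low on these arrays. The SNURF;SNRPN feature of the same cluster was called higher at 0.41. Copies within each family are nearly identical, so probes may read several members at once and the members are not independent of each other. The family was singled out after its values were seen.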
